A study of Mus musculus with 9 samples.

Results

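The CXC chemokines described here were Cxcl1, Cxcl2, Cxcl5, Cxcl9, Cxcl10, Cxcl12, Cxcl13, Cxcl14, Cxcl15 and Cxcl16, 10 of the 19698 genes that carried a symbol and passed the filter on dim probes. They were chosen by name, and each was represented by the brightest of its probes. The arrays held RNA from the lungs of male C57BL/6 mice, aged 10 weeks according to the labels, which list zoletil and rompun as the anesthetics given at irradiation for both groups. Control lungs gave 4 arrays, and irradiated left lungs gave 5. Neither the dose nor the region nor the time after irradiation is in the labels, so that the 5 irradiated arrays may hold several conditions and their spread includes any such difference. RNA of triplicate experiments was pooled before labeling with Cy5, so that each array is 1 pool of mice and a p-value measures the spread between pools. In whole tissue, fewer cells of a type and less RNA per cell cannot be told apart.

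Chemokines are small secreted proteins that bind G protein-coupled receptors and guide leukocytes along a gradient. The members fall into groups, mostly by receptor. Cxcl1, Cxcl2, Cxcl5 and Cxcl15 carry the glutamate-leucine-arginine motif ahead of the CXC cysteines and attract neutrophils. Cxcl1, Cxcl2 and Cxcl5 act mainly through Cxcr2. Cxcl9 and Cxcl10 are induced by interferon gamma and attract activated T cells and natural killer cells through Cxcr3. Cxcl12 holds leukocytes and progenitors near stroma through Cxcr4, Cxcl13 leads B cells into follicles through Cxcr5, and Cxcl16, made as a membrane protein, binds Cxcr6. Cxcl14 is made constitutively by many epithelia. In irradiated lung, chemokines of these groups are studied for their place in pneumonitis and fibrosis.

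The lung label was borne out by the surfactant and airway genes, since all 10 type II alveolar markers and all 8 airway markers measured were well above background on all 9 arrays. Of these arrays, 2 stood apart. On irradiated array 1 the mean of 10 cardiac muscle markers was −5.44 log2 units relative to the control mean, against −0.47 to 0.44 for the other irradiated arrays. On control array 3 the mean of 10 skeletal muscle markers lay 4.29 above the control mean, against −1.83 to −1.20 on the other controls. Differences are therefore given below with and without these arrays where it matters. Control and irradiated arrays also fell into 4 pairs, called scan pairs, by the image height of their first spot, while irradiated array 1 had no partner. No slide or scan date is stated, so these pairs are inferred from that position alone. Spots well above background made up 72.8% to 89.1% of an array, and none was saturated.

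No member passed the threshold, an adjusted p under 0.05 in the limma fit across 39303 probes. In that fit 0.333% of all probes passed. At an unadjusted p under 0.05 it gave 2 members, Cxcl1 and Cxcl2, where 9.94% of all probes had such a p. The exact permutation test gave 1 member at an unadjusted p under 0.05, where 9.45% of the probes tested had one, and 0 after adjustment over all probes. Neither test models the scan pairs. With the pairs as a fixed block 2 members passed the limma threshold (2.81% of all probes), and as a random block 1 (7.38%), as given below. The values were nonetheless uneven across the family: 7 of the 10 had a higher mean in the irradiated group, with a median difference of 0.49 on the log2 scale. Over all 19698 genes 51.9% were higher and the median difference was 0.0085. Over all 9 arrays Cxcl1, Cxcl2, Cxcl5 and Cxcl10 were at least 2-fold higher, as were 1.55% of all probes. The probe of Cxcl2 was dim and its size depended on the background correction. Without control array 4 Cxcl2 and Cxcl10 were under 2-fold, at 0.70 and 0.69 on the log2 scale. Without control array 3 Cxcl5 and Cxcl10 were under 2-fold, at 0.94 and 0.49, as was Cxcl10 without irradiated array 2, at 0.55.

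**Figure D1:**
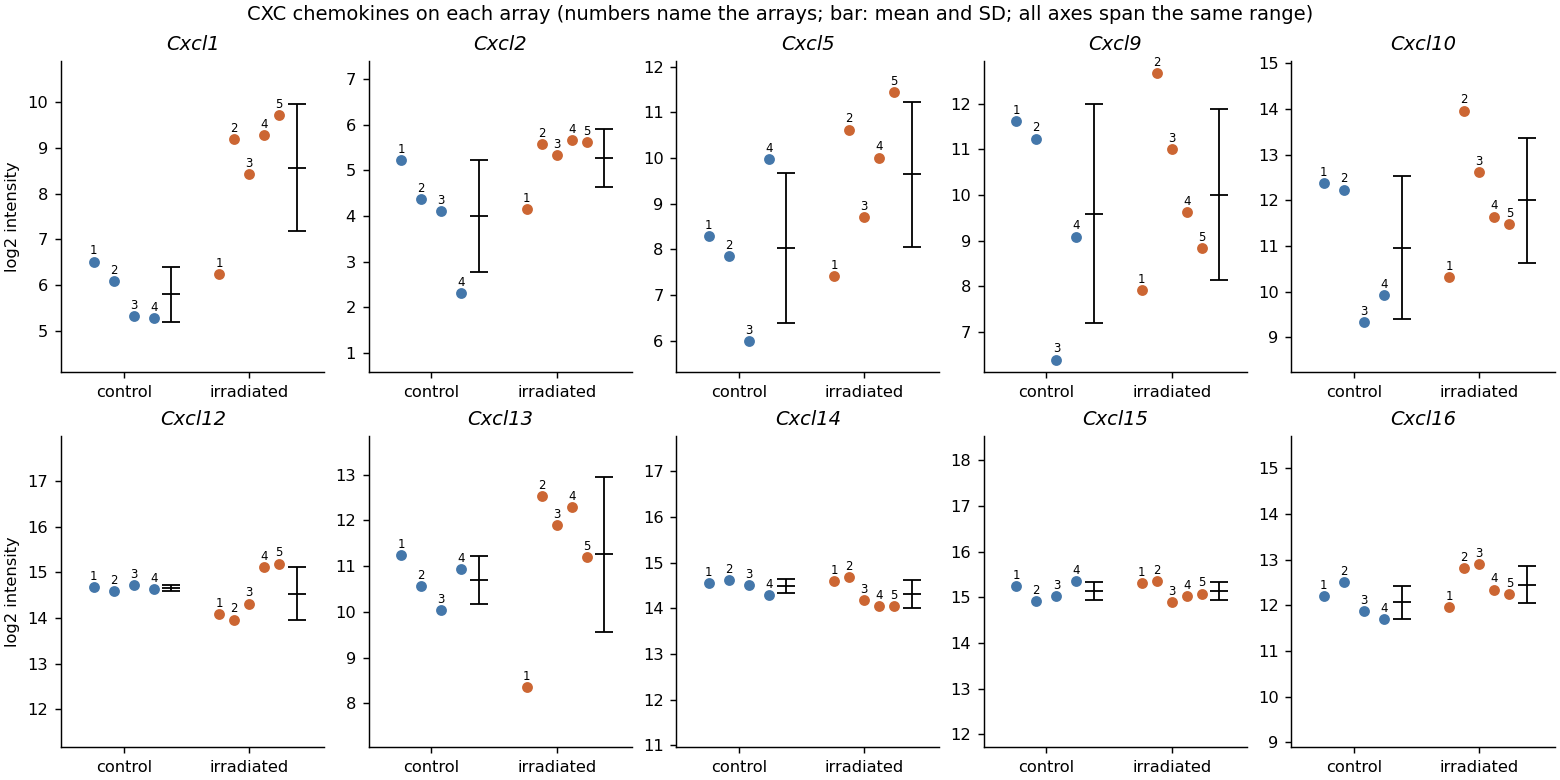
Log2 intensity (vertical axes, of equal span) of each CXC chemokine on the 4 control and 5 irradiated arrays, with the mean and SD beside the points. Cxcl1 was between 8.42 and 9.71 on irradiated arrays 2 to 5 and 6.24 on irradiated array 1, while Cxcl15 was between 14.89 and 15.36 on all 9 arrays.

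Of the neutrophil attractants, 3 lie side by side. In the RefSeq annotation of GRCm38.p6, Cxcl15 sits on chromosome 5 between Cxcl3 and Cxcl1, and Cxcl2 follows Cxcl1. Their upstream sequences are printed because Cxcl1 had the largest difference of the family and Cxcl15, next to it, the smallest, with Cxcl2 as the neighbor on the other side. Each is the run of 250 bases ahead of the RefSeq start site, 5′ to 3′ on the strand of the gene. Capitals mark matches on either strand to GGGNNNNNCC, a loose form of the kappaB element bound by NF-kappaB factors, and to GAAANNGAAA, the core of an interferon-stimulated response element.
Cxcl1, chr5:90890995-90891244, plus strand: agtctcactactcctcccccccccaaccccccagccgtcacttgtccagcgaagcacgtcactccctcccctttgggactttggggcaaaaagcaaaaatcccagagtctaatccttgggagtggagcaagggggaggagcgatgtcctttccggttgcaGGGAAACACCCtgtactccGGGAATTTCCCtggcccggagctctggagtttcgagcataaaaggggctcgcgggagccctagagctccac
Cxcl2, chr5:90903649-90903898, plus strand: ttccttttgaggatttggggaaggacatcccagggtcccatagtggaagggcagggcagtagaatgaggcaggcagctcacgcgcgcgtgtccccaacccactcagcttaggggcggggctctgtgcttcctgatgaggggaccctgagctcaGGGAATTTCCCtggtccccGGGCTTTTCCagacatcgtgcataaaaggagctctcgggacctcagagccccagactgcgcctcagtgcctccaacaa
Cxcl15, chr5:90794284-90794533, plus strand: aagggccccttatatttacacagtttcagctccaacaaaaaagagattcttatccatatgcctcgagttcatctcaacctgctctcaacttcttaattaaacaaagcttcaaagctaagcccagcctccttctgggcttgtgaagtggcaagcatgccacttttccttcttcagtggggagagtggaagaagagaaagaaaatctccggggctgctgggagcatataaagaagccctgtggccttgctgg
Cxcl1 and Cxcl2 shared the letters GGGAATTTCC, whose first base lay at −71 from the Cxcl1 start and at −97 from the Cxcl2 start. Cxcl3 held the same letters at −73. They were taken from the windows of Cxcl1 and Cxcl2 themselves, and 28 of the 32851 promoter windows of this length in the table, or 0.0852%, held them. The loose form is common: 45.8% of the windows held it, as did 6 of the 8 members in the table. The Cxcl15 window held neither motif. A match is a run of letters, and binding was not measured here.

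Cxcl1 had the largest difference of the family. Its log2 intensity was 6.51, 6.08, 5.32 and 5.28 on control arrays 1 to 4 and 6.24, 9.19, 8.42, 9.28 and 9.71 on irradiated arrays 1 to 5. Irradiated arrays 2 to 5 lay above every control, and irradiated array 1 lay inside the control range, so the groups overlapped. The means were 5.80 ± 0.60 (SD, n = 4) and 8.57 ± 1.38 (SD, n = 5), a 6.82-fold difference. On the log2 scale it was 2.77, with a standard error of 0.64, a 95% confidence interval of 1.34 to 4.20 and a limma adjusted p of 0.127. The size depended on the background correction and normalization, at 1.86 with normexp (limma adjusted p = 0.114) and 1.84 in the authors' normalized table (limma adjusted p = 0.35). The exact two-sided permutation test gave p = 0.0238, where 0.00794 is the smallest it can give, and 0.417 after adjustment over all probes. All 4 scan pairs were higher in the irradiated array, by 2.68, 2.34, 3.96 and 4.43.

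The call for Cxcl1 depended on irradiated array 1 and on how the scan pairs were modeled. Without that array the difference was 3.35, or 10.2-fold, and passed the threshold (limma adjusted p = 0.00815), as did 1.21% of all probes. With the scan pairs as a fixed block, which leaves irradiated array 1 out of the difference, it was also 3.35 (limma adjusted p = 0.0318, with 2.81% of all probes called). With the pairs as a random block, which keeps all 9 arrays, it was 3.12 (limma adjusted p = 0.0058, with 7.38% called). Without both irradiated array 1 and control array 3 it was 3.19 (limma adjusted p = 0.0332, with 0.394% called). The part of the low cardiac muscle RNA of irradiated array 1 in its low Cxcl1 was not tested.

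Cxcl2, also known as MIP-2, was dim. Its values were 5.23, 4.38, 4.11 and 2.31 on the controls and 4.14, 5.58, 5.33, 5.67 and 5.62 on the irradiated arrays. As for Cxcl1, irradiated arrays 2 to 5 were above all controls and irradiated array 1 was not. The probe was well above background on 1 of the 4 control and 4 of the 5 irradiated arrays. The difference of 1.26 (standard error 0.55, limma adjusted p = 0.484) is therefore uncertain in size, and normexp background correction, which damps dim signals, reduced it to 0.27. Without control array 4, which had the lowest value, it was 0.70 (limma adjusted p = 0.685). By their brightest probes, Cxcl1 and Cxcl2 were the 2 members with at least 4 irradiated arrays above every control. This pattern was held by 6.87% of all probes, and the dimmer probe of Cxcl12, given below, held it too.

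Cxcl5, made in lung largely by epithelial cells, varied 15.8-fold among the controls alone. Its values were 8.28, 7.85, 5.99 and 9.97 on the controls and 7.42, 10.62, 8.71, 10.01 and 11.44 on the irradiated arrays. Only 3 irradiated arrays lay above all controls. The difference was 1.62 with a standard error of 0.91 (limma adjusted p = 0.634) and rested on single arrays, at 2.17 without irradiated array 1 (limma adjusted p = 0.347), 2.26 without control array 4 (limma adjusted p = 0.507) and 0.94 without control array 3 (limma adjusted p = 0.864). Within the scan pairs it was higher each time, by 2.33, 0.86, 4.01 and 1.47, and as a fixed block it was 2.17 (limma adjusted p = 0.0993).

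Cxcl15, known as lungkine and made by airway epithelium, showed no such difference. Its log2 intensity was 15.24, 14.92, 15.02 and 15.36 on the controls and 15.30, 15.36, 14.89, 15.02 and 15.08 on the irradiated arrays. The difference was −0.0022 with a 95% confidence interval of −0.28 to 0.28, which excludes a change of 2-fold in either direction. Of the 8 airway markers measured, 1 had a higher mean in the irradiated group, 0 passed the limma threshold and 2 had an unadjusted p under 0.05, against 12.3% of all genes. Cyp2f2, a cytochrome P450 of club cells, differed by −0.56 (limma adjusted p = 0.11) and passed with the pairs as a fixed block (limma adjusted p = 0.0479), as a random block and without irradiated array 1. Without both irradiated array 1 and control array 3 it did not pass. The markers' summed log2 level was 20.18 to 20.34 on the controls and 19.82 to 19.95 on the irradiated arrays. The part of the airway RNA in the level of Cxcl15 was not tested.

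Markers of neutrophils, the cells that these 4 chemokines attract, mostly had lower means in the irradiated group. Of 11 neutrophil markers measured, 2 were higher and 9 lower, with a median difference of −0.60, and 0 passed the limma threshold (3 at an unadjusted p under 0.05, where 12.3% of all genes had one). Their summed log2 level was 18.20 to 18.98 in the controls and 18.34 to 18.56 in the irradiated group. S100a9, a calcium-binding protein abundant in neutrophils, differed by −0.80 (limma adjusted p = 0.672). Lcn2, a granule protein that epithelium also makes, differed by 1.74 (limma adjusted p = 0.112). It passed with the pairs as a fixed block, at 1.99 (limma adjusted p = 0.0252), and without irradiated array 1 (limma adjusted p = 0.0299). It did not pass without both irradiated array 1 and control array 3. With the pairs as a random block 3 of the 11 passed, Lcn2 higher and Camp and Ngp lower, where 7.38% of all probes passed. Of the receptors, Cxcr2 differed by −0.39 (limma adjusted p = 0.881) and Cxcr1 by 1.45 (limma adjusted p = 0.381). Cxcr1, Cxcr2, S100a9 and Lcn2 were singled out after their values were seen.

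Cxcl9 and Cxcl10, the chemokines of the interferon gamma response, differed more among arrays of a group than between groups. Their genes are neighbors on chromosome 5, with Art3 between them. The upstream runs are printed to set these co-varying members beside the neutrophil attractants, with the same marks.
Cxcl9, chr5:92328080-92328329, minus strand: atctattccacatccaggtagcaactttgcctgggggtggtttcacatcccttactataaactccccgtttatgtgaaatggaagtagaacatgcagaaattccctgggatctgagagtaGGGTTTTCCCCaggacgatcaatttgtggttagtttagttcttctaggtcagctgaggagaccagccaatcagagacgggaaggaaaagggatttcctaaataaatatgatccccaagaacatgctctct
Cxcl10, chr5:92348890-92349139, minus strand: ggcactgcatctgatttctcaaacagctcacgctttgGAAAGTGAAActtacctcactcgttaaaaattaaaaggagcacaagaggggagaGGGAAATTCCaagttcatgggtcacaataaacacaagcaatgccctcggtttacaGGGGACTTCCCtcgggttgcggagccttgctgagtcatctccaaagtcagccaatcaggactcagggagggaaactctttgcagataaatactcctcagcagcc
The letters GAAANNGAAA were found in the Cxcl10 window, from −213 relative to the start, and not in the Cxcl9 window. They occurred in 2.98% of all windows, and Cxcl14 was the only other member with a match.

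Cxcl10 had log2 intensities of 12.37, 12.23, 9.33 and 9.92 on control arrays 1 to 4 and 10.32, 13.96, 12.61, 11.64 and 11.47 on irradiated arrays 1 to 5. Cxcl9 had 11.61, 11.23, 6.40 and 9.09 on the controls and 7.91, 12.66, 11.002, 9.63 and 8.84 on the irradiated arrays. The arrays stood in the same order for both genes, with controls 1, 2, 4 and 3 and irradiated arrays 2, 3, 4, 5 and 1 from high to low. Among the controls, Cxcl9 spanned 37.1-fold and Cxcl10 spanned 8.23-fold. The SD of Cxcl9 over the controls, 2.40, was larger than that of 99.9% of the 15228 genes well above background on all arrays, and that of Cxcl10, 1.57, larger than that of 99.7%.

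Against that spread the differences between groups were small. Cxcl10 differed by 1.04 with a 95% confidence interval of −0.79 to 2.87 (limma adjusted p = 0.777). Cxcl9 differed by 0.43, from −2.22 to 3.08 (limma adjusted p = 0.969), and its dimmer probe by 0.26. Within the scan pairs Cxcl10 was higher in all 4, by 1.59, 0.38, 2.31 and 1.55, and Cxcl9 in 2, by 1.05 and 3.23 against −0.23 and −0.25. With the pairs as a fixed block the difference of Cxcl10 was 1.46 (limma adjusted p = 0.0772). Without control array 3, which had the lowest value of both, the difference of Cxcl9 was −0.64 and that of Cxcl10 was 0.49, and without irradiated array 2 that of Cxcl9 was −0.24. The direction of Cxcl9 and the size of Cxcl10 thus rest on single arrays.

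In the genes of the same response the differences were small. Of the 16 genes of the interferon gamma list, which holds the cytokine, its receptor and genes it induces, 15 had a higher mean in the irradiated group, with a median difference of 0.19. Over all genes 51.9% had a higher mean. None of the 16 passed the limma threshold, and 0 had an unadjusted p under 0.05, where 12.3% of all genes had one. With the scan pairs as a fixed block 1 passed (2.81% of all probes did), the GTPase Irgm1, at 0.36 (limma adjusted p = 0.0469). The brightest were Irf1, a transcription factor of this response, at a difference of 0.12 (limma adjusted p = 0.842), and Ifngr1, a receptor chain, at 0.073 (limma adjusted p = 0.931). Cxcr3, the receptor of Cxcl9 and Cxcl10, differed by 0.071 (limma adjusted p = 0.989). It was higher in all 4 scan pairs, at 0.37 with the pairs as a fixed block (limma adjusted p = 0.0746) and 0.37 without irradiated array 1 (limma adjusted p = 0.623). Of 10 T cell markers, 5 were higher in the irradiated group, with a median difference of −0.0014 and a summed log2 level of 15.21 to 15.57 on the controls and 14.88 to 15.74 on the irradiated arrays.

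**Figure D2:**
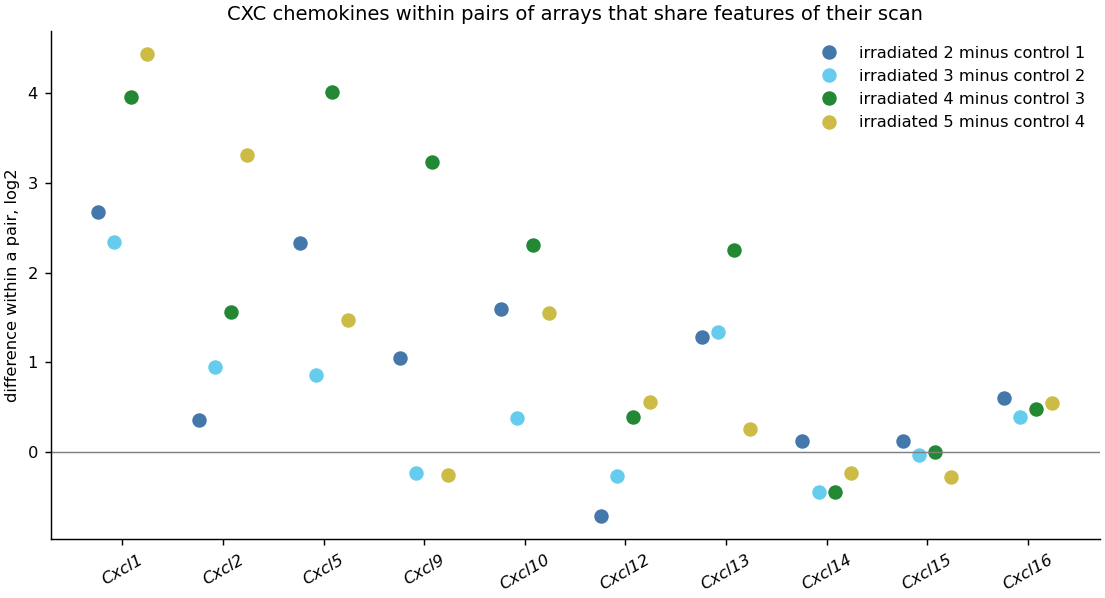
Irradiated minus control (log2, vertical axis) of each CXC chemokine within the 4 scan pairs, 1 point for each pair. Cxcl1 lay between 2.34 and 4.43 and Cxcl16 between 0.39 and 0.61, while Cxcl9, Cxcl12, Cxcl14 and Cxcl15 had points on both sides of 0.

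Cxcl13, the B cell attractant of follicles, split the irradiated arrays. Its values were 11.25, 10.56, 10.03 and 10.94 on the controls and 8.36, 12.53, 11.90, 12.29 and 11.20 on the irradiated arrays. Irradiated array 1 had the lowest value of all 9 arrays and irradiated array 2 the highest. The difference was 0.56 (standard error 0.75, limma adjusted p = 0.894). Without irradiated array 1 it was 1.29, or 2.44-fold, and still did not pass the threshold (limma adjusted p = 0.126). It was 0.24 without irradiated array 2, 0.30 without irradiated array 4 and 0.34 without control array 3. All 4 scan pairs were higher in the irradiated array, by 1.28, 1.34, 2.26 and 0.26. Jchain, the joining chain made by plasma cells, differed by −0.13 (limma adjusted p = 0.998) and by 1.03 without irradiated array 1 (limma adjusted p = 0.73), and Cd79b, a subunit of the B cell receptor, by −0.38 (limma adjusted p = 0.358). Of the 11 B and plasma cell markers, 4 were higher in the irradiated group, and their summed log2 level was 15.74 to 16.60 on the controls and 15.19 to 17.33 on the irradiated arrays, the lowest being irradiated array 1. The part of these cells in the value of Cxcl13 was not tested. Cxcr5, its receptor, differed by −0.27 (limma adjusted p = 0.808).

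Of 9 lymphoid tissue genes, 6 were higher, with a median difference of 0.16, and none passed the limma threshold (3 at an unadjusted p under 0.05, where 12.3% of all genes had one). The brightest were Ccl21a, the chemokine of lymphatic vessels and T cell zones, at −0.53 (limma adjusted p = 0.448), and Ltb, a lymphotoxin chain, at 0.029 (limma adjusted p = 0.993). Tnfsf13b, the B cell survival factor BAFF, passed with the scan pairs as a fixed block, at 0.55 (limma adjusted p = 0.0426). Cr2, a complement receptor of B cells and follicular dendritic cells, differed by −0.48 (limma adjusted p = 0.204), with all irradiated arrays below all controls. The groups did not overlap for 4.16% of all probes. Cr2 passed with the pairs as a random block, at −0.45 (limma adjusted p = 0.0401), where 7.38% of all probes passed.

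Cxcl12, the stromal chemokine, was measured by 2 probes annotated to different RefSeq transcripts, and they disagreed. The brighter one, which stands for the gene here, read 14.68, 14.59, 14.72 and 14.63 on the controls and 14.08, 13.96, 14.31, 15.11 and 15.19 on the irradiated arrays. Its control SD of 0.060 was among the smallest, above that of 3.43% of 15228 genes, whereas the irradiated arrays lay on both sides of the control range with an SD of 0.58. The difference was −0.12 (limma adjusted p = 0.948). The dimmer probe read 10.78, 10.59, 10.57 and 10.49 on the controls and 10.54, 11.61, 11.20, 12.22 and 11.46 on the irradiated arrays, a difference of 0.80 (limma adjusted p = 0.321). By this probe irradiated arrays 2 to 5 were above all controls, and it passed the threshold when the pairs were a random block, at 0.93 (limma adjusted p = 0.0214). It did not pass when they were a fixed block (limma adjusted p = 0.0555), without irradiated array 1 (limma adjusted p = 0.0504) or without control array 3 as well (limma adjusted p = 0.128).

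The ratio of the 2 probes within an array was compared for both members with 2 probes. For Cxcl12 the log2 ratio of the brighter to the dimmer was 3.90, 4.00, 4.15 and 4.14 on the controls and 3.54, 2.35, 3.11, 2.89 and 3.73 on the irradiated arrays. The groups did not overlap, and the mean ratio was 0.92 lower in the irradiated group. Non-overlap was seen for 4.16% of all single probes, but a ratio is another measure. Its share over ratios of other genes was not computed. The exact two-sided permutation test gave p = 0.0238, and 0.0476 adjusted over the 2 ratios tested. Within the 4 scan pairs the ratio differed by −1.55, −0.88, −1.26 and −0.41. It differed by −0.85 with scaling to the 75th percentile, −0.92 with normexp and −0.60 in the authors' table. For Cxcl9 the ratio differed by 0.17 (exact permutation p = 0.722). An unequal change of 2 probes says nothing of which transcript moved, and Cxcl12 was tested after its probes were seen to disagree.

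**Figure D3:**
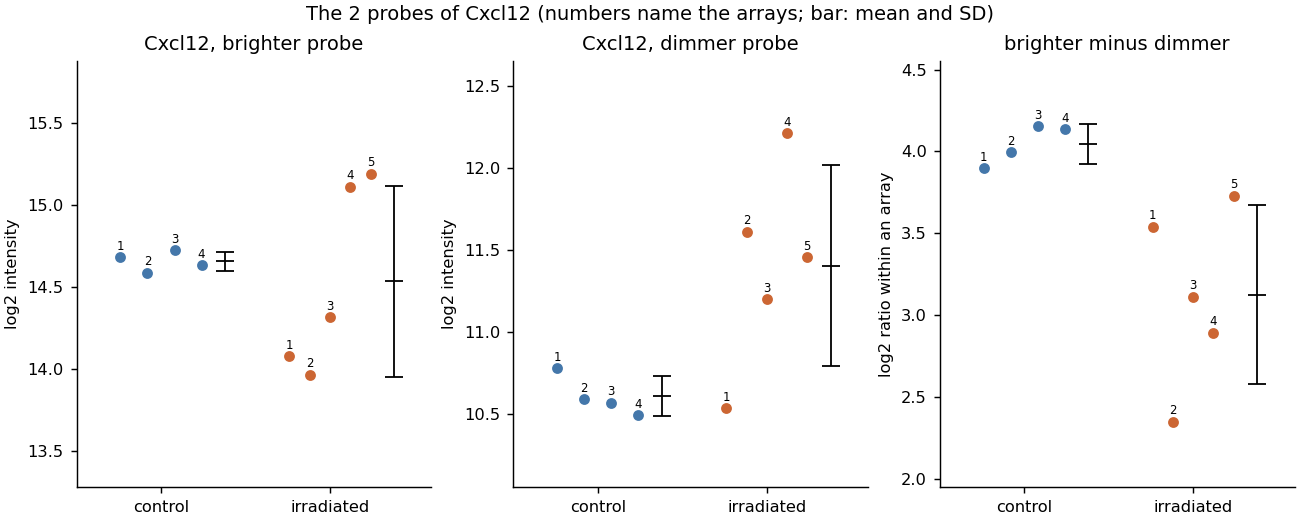
Log2 intensity of the brighter and dimmer probe of Cxcl12 and their log2 ratio within each array (vertical axes), with the mean and SD beside the points. The ratio was 3.90 to 4.15 in the controls and 2.35 to 3.73 in the irradiated group.

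Neither receptor of Cxcl12 passed the threshold. Cxcr4, the signaling receptor, differed by 0.079 (limma adjusted p = 0.964). Ackr3, the atypical receptor that removes Cxcl12 from the tissue and the brightest gene of the receptor list, differed by 0.60 (limma adjusted p = 0.318). Of the 8 receptors, 6 were higher in the irradiated group, with a median difference of 0.16. None passed the limma threshold, and 2 had an unadjusted p under 0.05, where 12.3% of all genes did. Without irradiated array 1 the receptor differences of Cxcr2, Cxcr5 and Cxcr6 were −0.64, −0.14 and 0.52, and again none of the 8 passed.

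Cxcl16 had a small difference that was alike in every pair. Its values were 12.21, 12.51, 11.87 and 11.70 on the controls and 11.97, 12.81, 12.90, 12.34 and 12.24 on the irradiated arrays. The groups overlapped, with 2 irradiated arrays above all controls, and the difference was 0.38 (standard error 0.22, limma adjusted p = 0.65). Within the scan pairs it was 0.61, 0.39, 0.48 and 0.55. With the pairs as a fixed block the difference was 0.51, or 1.42-fold, with a standard error of 0.057, and it passed the threshold (limma adjusted p = 0.0307). It was 0.46 with the pairs as a random block (limma adjusted p = 0.0621) and 0.51 without irradiated array 1 (limma adjusted p = 0.417), so the call appears only under the fixed block. Cxcr6, its receptor and the second brightest of the receptor list, differed by 0.24 (limma adjusted p = 0.91).

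Adam10, the protease that sheds Cxcl16 from the cell surface, differed by 0.37 (limma adjusted p = 0.305) and passed with the scan pairs as a fixed block, at 0.35 (limma adjusted p = 0.0367). Of the 8 enzymes that shed or trim chemokines, 5 were higher, with a median of 0.36 and 0 past the limma threshold (3 at an unadjusted p under 0.05, where 12.3% of all genes had one). Mmp2, a gelatinase that cuts Cxcl12, differed by 0.61 (limma adjusted p = 0.147) and passed with the pairs as a fixed block, at 0.56 (limma adjusted p = 0.0329). Mmp12, the macrophage elastase, singled out for its size, differed by 2.63 (standard error 0.54, limma adjusted p = 0.0861). All its irradiated arrays lay above all controls, where the groups did not overlap for 4.16% of all probes.

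Cxcl14 was close to its control level. It read 14.56, 14.63, 14.50 and 14.28 on the controls and 14.60, 14.69, 14.19, 14.06 and 14.05 on the irradiated arrays. Irradiated array 1 lay inside the control range, irradiated array 2 just above it and the other 3 below it. The difference was −0.18 with a 95% confidence interval of −0.52 to 0.16 (limma adjusted p = 0.803). Cxcl14 was higher in the irradiated array of 1 scan pair, by 0.13, and the other 3 pairs were at −0.44, −0.45 and −0.23.

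Across the family, 6 of the 10 members were higher in the irradiated array of all 4 scan pairs, as were 14.7% of all probes. These were Cxcl1, Cxcl2, Cxcl5, Cxcl10, Cxcl13 and Cxcl16. With the pairs as a fixed block 2 of the 10 passed the threshold, Cxcl1 and Cxcl16, beside 2.81% of all probes. With the pairs as a random block 1 of the 10 passed, Cxcl1, which is near the 7.38% of all probes. Irradiated array 1 had the lowest value of the 5 irradiated arrays for 7 members, namely Cxcl1, Cxcl2, Cxcl5, Cxcl9, Cxcl10, Cxcl13 and Cxcl16. Leaving it out raised the median difference of the family from 0.49 to 1.12, and leaving out control array 3 as well gave 0.68.

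**Figure D4:**
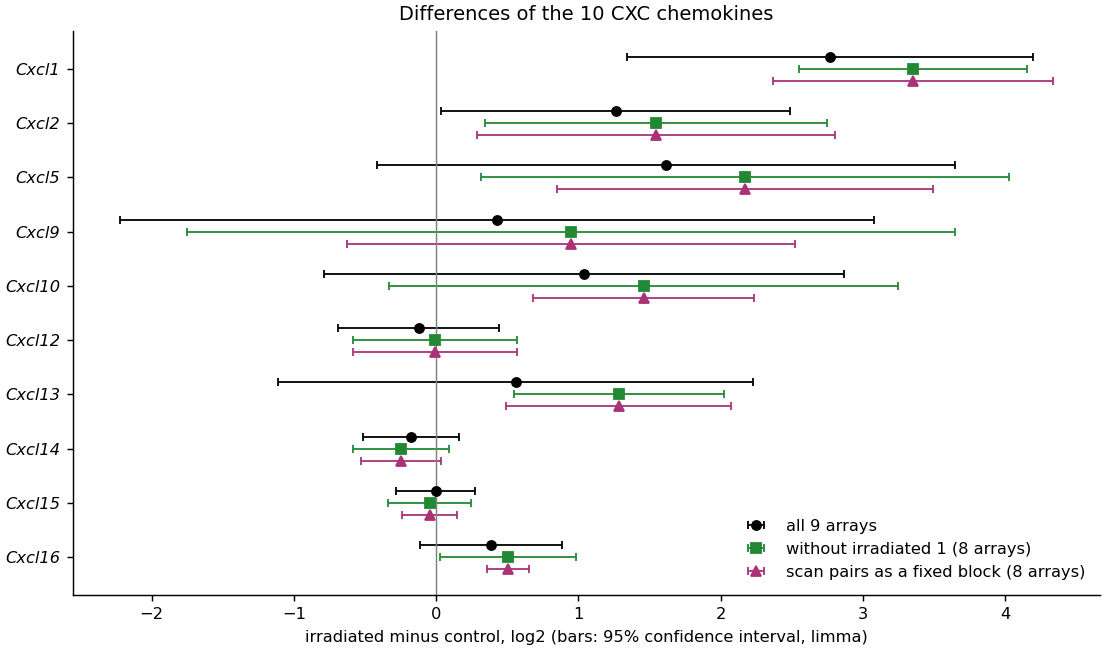
Irradiated minus control (log2, horizontal axis) of the 10 CXC chemokines with 95% confidence intervals from limma, over all 9 arrays, without irradiated array 1, and with the scan pairs as a fixed block. Cxcl1 moved from 2.77 to 3.35, and Cxcl12, Cxcl14 and Cxcl15 stayed between −0.25 and −0.0022.

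The rest of the pathway was given by 60 genes in 6 lists. Of these, 46 (76.7%) had a higher mean in the irradiated group, against 51.9% of all genes, with a median difference of 0.19. None passed the limma threshold, and 12 had an unadjusted p under 0.05, against 12.3% of all genes. With the scan pairs as a fixed block 7 passed, all higher in the irradiated group, where 2.81% of all probes passed. With them as a random block 10 passed, 8 higher and 2 lower (Ppbp and Cr2), where 7.38% of all probes passed, and without irradiated array 1 there were 3, of which 2 were higher, where 1.21% of all probes passed. Those 3 were Il6, Mmp12 and Ppbp.

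Among 14 genes of the signaling that induces the neutrophil attractants, namely cytokines, receptors, an adaptor and NF-kappaB factors with their inhibitors, 12 were higher, with a median of 0.23. Il6, an acute-phase cytokine, had the largest difference, at 2.53 (standard error 0.66, limma adjusted p = 0.178), and passed with the scan pairs as a fixed block, at 3.16 (limma adjusted p = 0.0273). So did Myd88, the adaptor of toll-like and interleukin-1 receptors, at 0.34 (limma adjusted p = 0.0423), against 0.21 over all 9 arrays without the block. Il1a, an alarm cytokine, differed by 1.42 (limma adjusted p = 0.282), with all irradiated arrays above all controls. The groups did not overlap for 4.16% of all probes. With the pairs as a random block 3 of the 14 passed, Il1a, Il6 and Relb, where 7.38% of all probes passed. Nfkbia, the inhibitor of NF-kappaB, differed by 0.066 (limma adjusted p = 0.972) and Rela, a main NF-kappaB subunit, by 0.12 (limma adjusted p = 0.682). Il6 and Il1a were chosen after their values were seen.

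The 5 other chemokines measured went different ways, with 2 higher. Cxcl17, a mucosal chemokine, differed by 0.58 (limma adjusted p = 0.4) and passed with the scan pairs as a fixed block, at 0.72 (limma adjusted p = 0.0358). Pf4, a platelet chemokine, differed by −0.26 (limma adjusted p = 0.591). Ppbp is the other platelet chemokine and the neighbor of Cxcl5 on chromosome 5. All its irradiated arrays lay below all controls, where the groups did not overlap for 4.16% of all probes. Ppbp differed by −0.99 (standard error 0.17, limma adjusted p = 0.0513). It passed without irradiated array 1 (limma adjusted p = 0.0442) and with the pairs as a random block (limma adjusted p = 0.0066). It did not pass with the pairs as a fixed block (limma adjusted p = 0.0727) or without both irradiated array 1 and control array 3. Cxcl3, next to Cxcl15, differed by 1.55 (limma adjusted p = 0.693) and was well above background on 2 controls and 4 irradiated arrays. Ppbp and Cxcl3 were singled out after their values were seen.

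**Figure D5:**
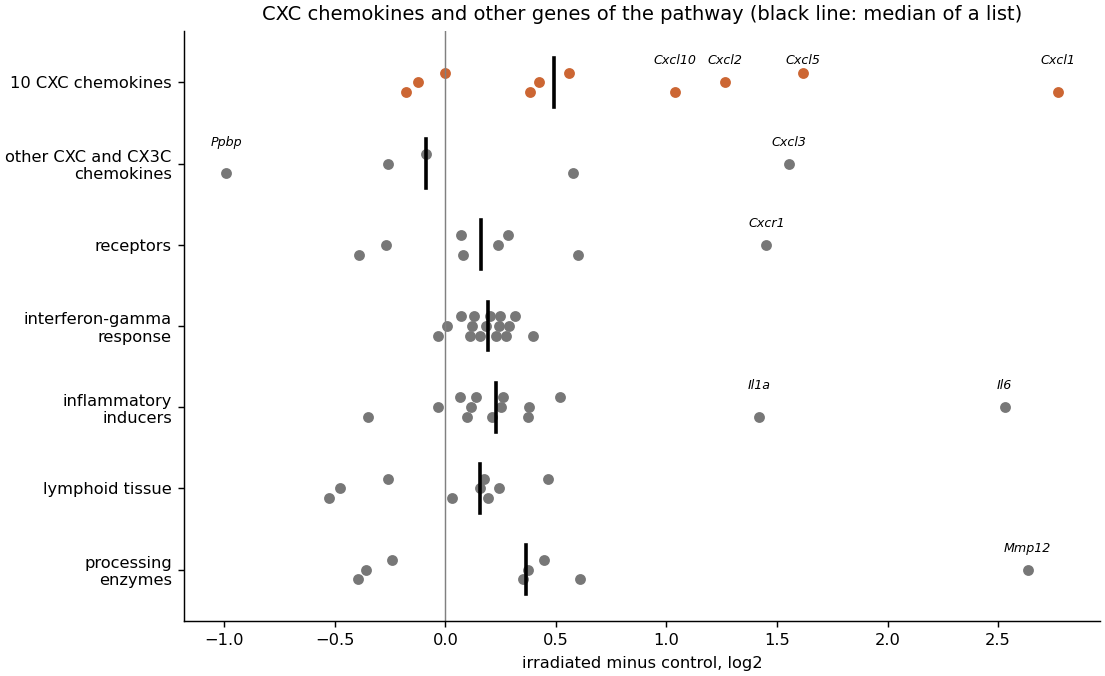
Irradiated minus control (log2, horizontal axis) of the 10 CXC chemokines and of the 60 other genes of the pathway by list, 1 point for each gene, with the median of each list as a black line. The medians were 0.49 for the CXC chemokines and between −0.089 and 0.36 for the other lists, and Cxcl1, Il6 and Mmp12 lay farthest to the right, at 2.77, 2.53 and 2.63.

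The genes whose levels followed Cxcl1 most closely over the 9 arrays were listed as a description, with no test. Among 15228 genes well above background on all arrays, the highest Pearson r was that of Cyp7b1, an oxysterol hydroxylase, at 0.972. Ccl2, a monocyte chemokine, followed at 0.969, Rgs16, a regulator of G protein signaling, at 0.967, Itgax, the integrin chain of CD11c, at 0.962, and Ms4a6d, a membrane protein of myeloid cells, at 0.962. All 5 shared the difference between groups and the low irradiated array 1. With the group means removed, r was between 0.889 and 0.933. Ccl2 ranged from 8.42 to 10.27 on the controls and from 9.63 to 12.37 on the irradiated arrays, with its lowest irradiated value on irradiated array 1. Itgax belongs to the macrophage markers, of which 6 of 11 were higher in the irradiated group, with a summed log2 level of 17.65 to 18.79 on the controls and 18.04 to 18.81 on the irradiated arrays. Of the 11, 5 had an unadjusted p under 0.05, against 12.3% of all genes, and 0 passed the limma threshold. Those 5 went both ways: Adgre1, Mrc1, Itgax and Mertk were higher and Fabp4 was lower. Fabp4 had the largest difference of the list, at −1.59 (limma adjusted p = 0.409), and was singled out after its values were seen. With the scan pairs as a fixed block 2 passed, Adgre1 and Mertk (2.81% of all probes), with them as a random block 4 (7.38%), and without irradiated array 1 there were 2, Adgre1 and Itgax (1.21%). The part of macrophages in the level of Cxcl1 was not tested.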

How the data were processed

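For each array the authors deposited intensity values of the Agilent Feature Extraction software, not normalized between arrays. They are the processed signal, the median signal and the local background, beside other columns of deposited marks (0 or 1) and spot positions. The version of that software is not given in the sources used here. A second deposited file of the authors held normalized intensity, and its 9 medians over the 31784 probes with a value on all arrays lay between 11.23 and 12.25 on the log2 scale. How it was scaled and centered is unknown, and it served as an alternative.

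Outlier and control spots were left out, the log2 of the processed signal was quantile normalized, and spots of a probe were averaged. Spot numbers in the files did not match the normalized table (rank correlation −0.00591 to 0.00458), so spots were numbered by position. The filter kept 39303 of 39429 probes, those brighter than 1.4 times their local background on 4 or more of the 9 arrays. Accessions were matched to RefSeq symbols of GRCm38.p6, which named 26055 probes. On 2 arrays 9757 spots carried other accessions, and those of the other 7 arrays were used. The promoter table held 8 of the 10 members, without Cxcl5 and Cxcl16.

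Groups were compared in R 4.3.3 with limma 3.58.1, using a variance trend on intensity and Benjamini-Hochberg adjustment across the kept probes, and single members also with an exact two-sided permutation test over the 126 splits of the arrays. The fit was tested on simulated data. Scan pairs were arrays that were each other's nearest in the image height of the first spot. Local background and accession version did not enter that rule. The members and the gene lists were chosen with earlier results of these data known. Named genes were the members, genes of a list past the threshold or otherwise its 2 brightest, and the 5 genes most like Cxcl1. The rule of the 2 brightest was kept for the pathway lists but not throughout for the cell marker lists. Outside that rule and with values seen, the members' receptors, genes past the threshold in an alternative fit and those said to be chosen afterwards were named. Cxcl11, Fdcsp, Ly6g, Trac, Cd68 and Scgb3a2 were not matched. Of 10 endothelial and 10 fibroblast markers 1 passed the threshold, Fn1 (0.90, limma adjusted p = 0.0326).

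Alternatives were scaling to the 75th percentile, normexp with an offset of 50, no filter or the filter on all 9 arrays, the authors' table, each array left out, replicate and scan blocks, no trend, array weights, an adjusted p under 0.01 and averaging a gene's probes. Leaving out control array 3 and irradiated array 1 together was added after seeing the data.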

Additional observations from a re-analysis of the deposited data

Results flagged for a closer look

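Dixon's criterion was applied 56 times, to the controls and the irradiated arrays of each member probe and marker list, and picked out 3 single arrays, where chance picks about 1 in 20. The log2 intensity of Cxcl2 was 4.14 on irradiated array 1, against 5.33 to 5.67 on the other irradiated arrays, and was not well above background there. The cardiac muscle markers were at −5.44 relative to the control mean on irradiated array 1, against −0.47 to 0.44 on the others. The skeletal muscle markers were at 4.29 on control array 3, against −1.83 to −1.20 on the other controls. No cause was tested for these values.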

How the results depend on the processing

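The causes of the changes below were not tested, and precision is limited by how few arrays there are. Of the 210 values of the 10 members under 21 alternatives, 192 kept their direction and side of the threshold, 5 passed the threshold and 13 turned direction. The turned values were those of Cxcl9, Cxcl12 and Cxcl15. The median of all probes moved by less than 0.1 under every alternative. The 0 members past the limma threshold became 2 with the scan pairs as a fixed block (Cxcl1 at 3.35, Cxcl16 at 0.51), 1 with them as a random block (Cxcl1 at 3.12), 1 without irradiated array 1 (Cxcl1 at 3.35), and 1 without both irradiated array 1 and control array 3 (Cxcl1 at 3.19). The range with each array left out was 0 to 1.

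The 0 other pathway genes became 7 and 10 with the fixed and random scan block, 1 with the filter on all 9 arrays (Ppbp), 1 without both arrays (Il6) and 0 to 3 with each array left out. The 131 probes became 197 with the filter on all 9 arrays, 39 with the authors' table, 44 without the trend, 205 with array weights, 5 at an adjusted p under 0.01, 1105 and 2899 with the fixed and random scan block, and 5 to 476 with each array left out. The share of lower probes among those called was 42.7%, against 58.1% with scaling to the 75th percentile, 50.9% with normexp and 79.5% with the authors' table. With the replicate number as a block limma called 1 probe and 0 members, with Cxcl1 at 2.48 (limma adjusted p = 0.424). Arrays of the same number had correlations of deviations from −0.17 to 0.062, so the numbers do not pair the arrays. For arrays of a scan pair they were 0.20 to 0.46.

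Cxcl15 turned to 0.027 with the 75th percentile, to 0.011 with the replicate block and to between 0.011 and 0.072 without control arrays 1 or 4 or irradiated arrays 3, 4 or 5. With each array left out it ranged from −0.073 to 0.072, Cxcl9 from −0.64 to 1.10 and Cxcl12 from −0.29 to 0.019. Cxcl9 turned to −0.64 without control array 3, to −0.24 without irradiated array 2 and to −0.11 without both doubted arrays. Cxcl12 turned to 0.34 with the mean of its 2 probes, to 0.019 without irradiated array 2 and to 0.014 without both arrays. The difference of Cxcl1 was 1.86 with normexp and 1.84 with the authors' table, and its limma adjusted p ranged from 0.0058 to 0.424 over the alternatives.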
